A study of Homo sapiens with 18 samples.

Results

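The POU transcription factor genes POU2F1, POU2F2, POU2F3, POU3F1, POU3F2, POU3F3, POU4F1, POU5F1 and POU6F1 were followed across 3 derivatives of K562, a human chronic myeloid leukemia line with erythroid features. The 9 genes were taken by symbol from 28395 genes in the RNA-seq tables, where 15 genes carry a POU symbol, together with the 33 of 85549 ATAC-seq regions that lay within 5 kb of them. The group was chosen because POU3F2 had higher RNA values in both lines that express BASP1, so the POU3F2 RNA values of those lines against the control are given as a description without a test. BASP1 is a membrane and nuclear protein that carries a myristoyl group on its N-terminal glycine and acts as a corepressor of the transcription factor WT1. V-K562 cells are the control line, B-K562 cells express wild-type BASP1, and G-K562 cells express BASP1-G2A, whose changed second residue cannot be myristoylated. All lines were stably transfected, selected with G-418 and kept as pools of cells rather than as single clones. RNA-seq and ATAC-seq, which reads open chromatin through cuts made by a transposase, each had 3 culture replicates per line, so 9 libraries per assay. Replicates are separate cultures of 1 pool, so the p-values measure the spread between cultures and not between independently made lines.

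POU factors bind DNA through a POU-specific domain and a POU homeodomain joined by a flexible linker, and many of them recognise the octamer ATGCAAAT or variants of it. The classes have distinct expression in the body: POU2F1 is made in most cells, POU2F2 mainly in B lymphocytes, the class III factors in the nervous system, POU4F1 in sensory neurons and POU5F1 in pluripotent cells. K562 cells are of blood origin, and the class III and class IV factors are best known outside blood.

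The RNA-seq values are the authors' normalized counts, read counts divided by a size factor per library and rounded, with B-K562 and G-K562 each in a table of its own beside the same V-K562 cultures. They summed to between 32074895 and 33229588 per library, and the size factors recovered from the rounding lay between 0.871 and 1.13, so that small values are close to read numbers and carry a large counting error. BASP1 itself stood at 5 to 7 (V-K562), 6189 to 6849 (B-K562) and 8124 to 12538 (G-K562). The 9 markers of K562 cells (among them GATA1, TFRC and the globins) were at 10 or more in every library, with a summed level of 127650 to 143584 (V-K562), 220823 to 224829 (B-K562) and 69132 to 74878 (G-K562). The part of this difference between the lines in the POU results was not tested.

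Promoter windows of genes on which the results turn, and the only promoter window of the 9 genes with an octamer, are shown first. The first 2 hold the 250 bases before the RefSeq start of POU3F2 (chr6:98834324-98834573, plus strand) and of POU3F1 (chr1:38046794-38047043, minus strand) in GRCh38.p14, with CCAAT boxes in capitals. The third holds the 250 bases before an internal start of POU2F1 (chr1:167328820-167329069, plus strand, GRCh38.p14), with the octamer, here as its reverse complement ATTTGCAT, in capitals.
POU3F2 promoter: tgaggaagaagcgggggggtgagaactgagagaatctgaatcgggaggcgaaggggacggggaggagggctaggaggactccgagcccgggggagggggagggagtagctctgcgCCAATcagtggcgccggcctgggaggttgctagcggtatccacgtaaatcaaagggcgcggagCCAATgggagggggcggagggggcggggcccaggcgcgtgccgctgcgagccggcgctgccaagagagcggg
POU3F1 promoter: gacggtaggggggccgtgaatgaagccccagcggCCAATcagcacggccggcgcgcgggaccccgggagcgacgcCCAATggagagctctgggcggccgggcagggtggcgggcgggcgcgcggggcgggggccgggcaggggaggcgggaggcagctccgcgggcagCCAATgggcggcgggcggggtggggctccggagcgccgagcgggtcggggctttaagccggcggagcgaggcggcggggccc
POU2F1 internal promoter: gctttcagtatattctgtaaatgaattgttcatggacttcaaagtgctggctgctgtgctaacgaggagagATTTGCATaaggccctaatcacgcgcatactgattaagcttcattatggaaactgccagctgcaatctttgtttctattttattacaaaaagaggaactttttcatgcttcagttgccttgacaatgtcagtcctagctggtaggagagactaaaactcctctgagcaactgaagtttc

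The POU3F2 window is 69.2% G and C and has CCAAT boxes that begin 135 and 72 bases before the start. The POU3F1 window is 80.8% G and C and has 3 CCAAT boxes, at 216, 175 and 82 bases. CCAAT or its reverse complement ATTGG occurs in 32% of all 35116 such windows in the RefSeq promoter table, and the simple WT1 motif GNGNGGGNG, searched on both strands, in 43.3% of them. The WT1 motif matched at 8 positions of the POU3F2 window, some of which overlap each other, and at 2 of the POU3F1 window. In the other windows of 250 bases it matched at 6 (both POU2F1 windows at the gene start), 5 and 3 (POU6F1) and 3 (POU3F3) positions. It matched at 2 (POU2F2), 1 (POU4F1) and 0 (internal POU2F1). How many positions match in windows of like G and C content was not tested. RefSeq promoter windows of 300 bases, 250 before and 50 after the start, were found for 7 of the 9 genes, 10 windows in all. The octamer was in 1 of them, the internal POU2F1 promoter, where it begins 179 bases before the start, against 1.77% of all promoter windows. The shorter motif ATGCAAA was in 2, the same POU2F1 window and a POU6F1 window, against 4.46% of all. Neither class III promoter shown holds ATGCAAAT or ATGCAAA in the letters printed.

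POU3F2, also called BRN2, a neural factor that is also known from melanoma, had the largest RNA difference from the control, in both BASP1 lines, among the 5 POU genes with enough reads to fit. The gene is on chromosome 6 from 98834704 to 98838790 on the plus strand, a single exon in the deposited annotation. In the V-K562 replicates it stood at 14, 8 and 13 normalized counts. In the B-K562 replicates of the same table it stood at 122, 140 and 137. In the other table, the V-K562 replicates were at 15, 8 and 14 and the G-K562 replicates at 58, 70 and 59. Every B-K562 and every G-K562 library was thus above every V-K562 library, and all G-K562 libraries lay between the other lines. Of all genes tested, 77.8% did not overlap in B-K562 against V-K562 and 70.2% in G-K562 against V-K562. Between the BASP1 lines 81% did not. Lack of overlap was thus the rule in these data, for POU3F2 and for the genes below. The mean was 11.7 ± 3.22 (SD, n = 3) in V-K562 and 133 ± 9.64 (SD, n = 3) in B-K562, a log2 fold change of 3.44 with a standard error of 0.22, and 23 of the 14958 genes tested had a larger one. The log2 fold change of G-K562 against V-K562 was 2.29 with a standard error of 0.26, and 304 of 15271 genes had a larger one. Fold changes are fitted on log2(value + 1), which understates them for low values. Both comparisons were used to choose the gene and share the V-K562 cultures, so no p is given for either. POU3F2 passed the filter on low values, 10 or more in 3 or more libraries, only through the BASP1 lines. RNA from a pool of cells does not tell apart fewer cells that express a gene and less RNA in each cell.

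The direct comparison of the BASP1 lines was not the criterion for choosing the gene, but it uses the same B-K562 and G-K562 values. Its p is therefore given as a description and not as an independent test. POU3F2 was lower in G-K562 than in B-K562, with a log2 fold change of -1.11, a standard error of 0.21 and an adjusted p of 0.00027 over 15521 genes (limma-trend, all 9 libraries). To put the lines on a common scale, a factor of 1.017, the average ratio between both tables' V-K562 values, was applied to B-K562. The level in G-K562 was 0.464 times that in B-K562, and the call held in all 13 alternatives that gave a value. A filter of 10 in every library gave none, because V-K562 replicate 2 stood at 8.

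**Figure D1:**
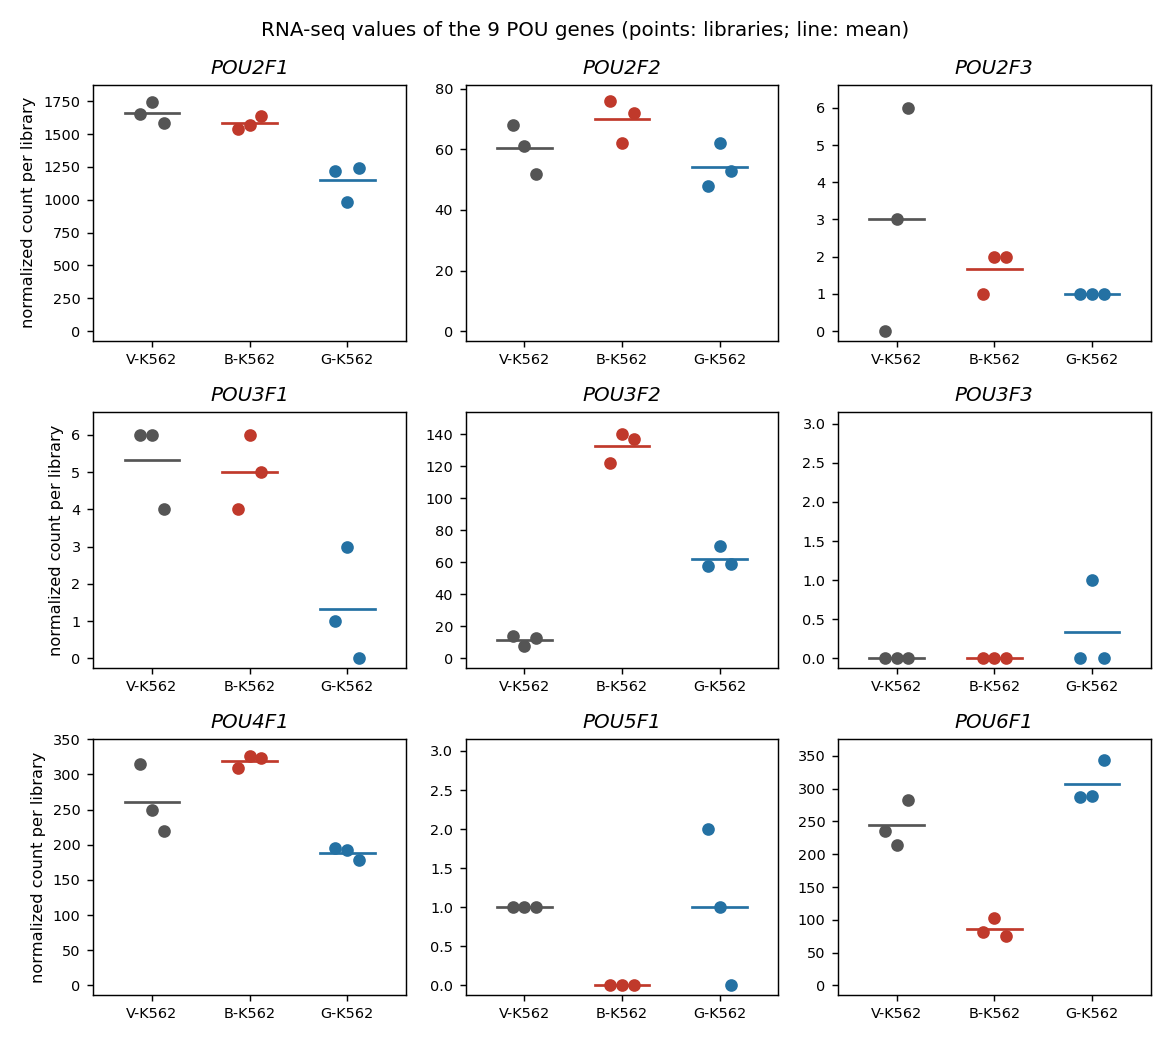
Normalized counts (vertical axes, linear and separate for each gene) of the 9 POU genes in the V-K562, B-K562 and G-K562 libraries, with 1 point per library and a line at the mean of 3. V-K562 and B-K562 values come from 1 table and G-K562 values from the other. The POU3F2 points of B-K562 lie between 122 and 140 and those of V-K562 between 8 and 14, while POU6F1 is lowest in B-K562.

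Set beside the other POU genes as a level per kb of merged exon length, POU3F2 moved up the order. In V-K562 the order was POU2F1 at a mean of 118 per kb, POU4F1 at 69.6, POU6F1 at 46.8, POU2F2 at 8.46 and POU3F2 at 3.02, the last of which overlapped POU3F1 at 1.94. In B-K562 POU3F2 was in position 3, with a mean of 33.1 per kb, below POU4F1 at 85.1 and above POU6F1 at 16.6, without overlap with either. In G-K562 it was in position 4 at 15.3 per kb, between POU4F1 at 49.5 and POU2F2 at 7.49, again without overlap. POU3F2 made up 0.802% to 1.43% of the summed level per kb of the 9 genes in the V-K562 libraries. Its part was 12.2% to 13.2% in the B-K562 libraries and 6.57% to 8.5% in the G-K562 libraries. POU2F1 had the highest level per kb of the 9 genes in every line, at 37.8% to 47.4% of the sum on average.

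Of the 9 genes, 5 passed the filter on low values, which asks for 10 or more in 3 or more libraries: POU2F1, POU2F2, POU3F2, POU4F1 and POU6F1. Against V-K562, 2 of the 5 were called in B-K562, POU3F2 higher and POU6F1 lower, where a call is an adjusted p of at most 0.05 with a change of at least 2-fold. Over all genes tested 20.6% were called in that comparison (6.46% higher and 14.1% lower), and POU3F2 was chosen from it, so nothing is read from the count. In G-K562 against V-K562, where POU3F2 was chosen too, it was the 1 gene of the 5 called, with 19.1% of all genes called (8.81% higher and 10.3% lower), and nothing is read from that count either. In G-K562 against B-K562, 2 of the 5 were called, POU3F2 lower and POU6F1 higher, with 29.9% of all genes called (17.4% higher and 12.5% lower). Ignoring size, 2 of the 5 were higher and 1 lower in B-K562, beside 75.8% of all genes (38.6% higher and 37.2% lower), and 2 were higher and 2 lower in G-K562, beside 66.9% (33.5% and 33.3%). In G-K562 against B-K562 all 5 passed the adjusted p, 1 higher and 4 lower, as did 78.5% of all genes (38.1% higher and 40.5% lower), so that passing it was the rule in these data. The plot of fold changes shows POU3F2 on the same side of 0 in both lines and POU6F1 and POU4F1 on opposite sides.

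**Figure D2:**
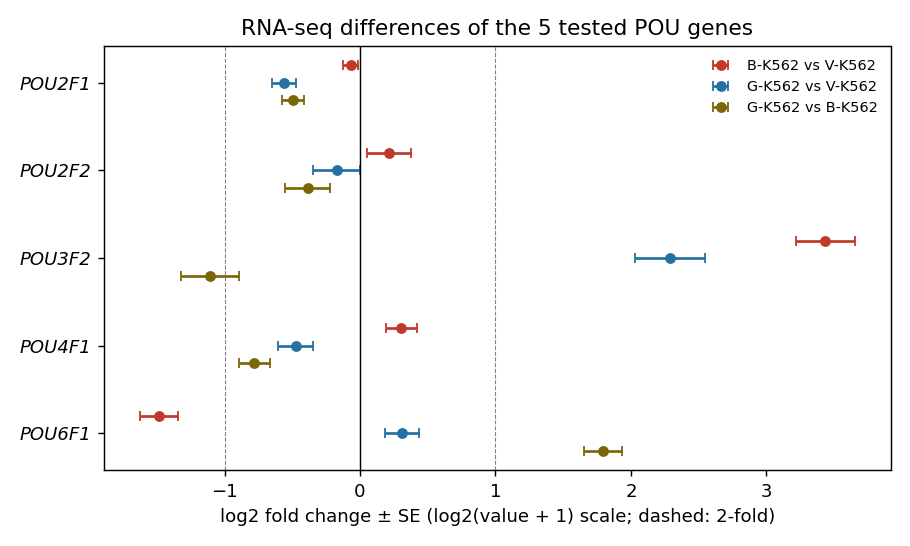
Log2 fold changes (horizontal axis, with bars of 1 standard error) of the 5 POU genes that passed the filter, in B-K562 against V-K562, G-K562 against V-K562 and G-K562 against B-K562, with dashed lines at 2-fold. POU6F1 lies at -1.49 in B-K562 and at 0.31 in G-K562 against V-K562, and POU3F2 at 3.44 and 2.29.

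POU6F1, a class VI factor known from the nervous system, fell in B-K562 and not in G-K562. The gene spans 51186936 to 51217693 on the minus strand of chromosome 12. The V-K562 replicates stood at 235, 214 and 283, the B-K562 replicates at 82, 103 and 75, and the G-K562 replicates, on the scale of the other table, at 287, 289 and 344. All B-K562 libraries lay below all others, and the lowest G-K562 library was above 2 of 3 V-K562 libraries but below the V-K562 library at 289 in that table. In B-K562 the log2 fold change was -1.49 (standard error 0.14, adjusted p = 4.2e-07), a fold of 0.357. In G-K562 it was 0.31 (standard error 0.12, adjusted p = 0.045). The G-K562 rise, under 2-fold, no longer passed the adjusted p in 6 of 11 alternatives, with adjusted p up to 0.19 without V-K562 replicate 2. The difference between the lines was 1.79 (standard error 0.14, adjusted p = 2.3e-08) and passed in all 14 alternatives.

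POU2F1, or OCT1, a widely expressed factor that acts on histone and small nuclear RNA genes, fell in G-K562 by less than 2-fold. It lies on chromosome 1 from 167220829 to 167427345 on the plus strand. V-K562 replicates stood at 1652, 1746 and 1586 and B-K562 replicates at 1537, 1569 and 1640, which overlap. In the other table V-K562 replicates stood at 1677, 1773 and 1618 and G-K562 replicates at 1222, 983 and 1238. All G-K562 libraries were below all V-K562 libraries. Its log2 fold change was -0.56 in G-K562 (standard error 0.09, adjusted p = 0.00016), and -0.07 in B-K562 (standard error 0.05, adjusted p = 0.25). The direct difference of G-K562 from B-K562 was -0.49 (standard error 0.08, adjusted p = 4.5e-05).

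POU2F2, or OCT2, a B lymphocyte factor, stood at 52 to 68 (V-K562), 62 to 76 (B-K562) and 48 to 62 (G-K562). Neither line passed the test against V-K562, with log2 fold changes of 0.21 (standard error 0.16, adjusted p = 0.24) and -0.17 (standard error 0.18, adjusted p = 0.4). The log2 fold change of G-K562 from B-K562 was -0.39 (standard error 0.16, adjusted p = 0.043), a call lost in 8 of 14 alternatives, with adjusted p up to 0.14.

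POU4F1, or BRN3A, which acts in sensory neurons, was the second POU gene per kb in V-K562. It spans 78599092 to 78603560 on the minus strand of chromosome 13. It stood at 315, 249 and 220 in V-K562, at 309, 326 and 323 in B-K562 and at 196, 193 and 178 in G-K562. The G-K562 libraries were below all others, whereas V-K562 replicate 1 lay inside the range of B-K562. In G-K562 its log2 fold change from V-K562 was -0.47 (standard error 0.13, adjusted p = 0.0072). In B-K562 the log2 fold change was 0.30 (standard error 0.12, adjusted p = 0.027), a call lost in 6 of 11 alternatives, with adjusted p up to 0.12 without V-K562 replicate 3. The difference of G-K562 from B-K562 was -0.78 (standard error 0.12, adjusted p = 2.3e-05) and held in all 14 alternatives.

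The 4 other genes stayed under the filter in every line, so for them the depth limits what can be seen. POU3F1, or OCT6, which acts in Schwann cells, stood at 6, 6 and 4 in V-K562, 4, 6 and 5 in B-K562 and 1, 3 and 0 in G-K562. POU2F3, a factor of tuft and taste cells, had 0 to 6 in V-K562, 1 or 2 in B-K562 and 1 in each G-K562 library. POU5F1, or OCT4, the pluripotency factor, had 1 in each V-K562 library, 0 in each B-K562 library and 0 to 2 in G-K562. POU3F3, or BRN1, was at 0 in all libraries but 1 of G-K562, which had 1. In a fit without the filter the POU3F1 log2 fold change was -0.07 in B-K562 (standard error 0.33, adjusted p = 0.87) and -1.73 in G-K562 (standard error 0.51, adjusted p = 0.022), and -1.59 between the BASP1 lines (adjusted p = 0.011). In the same fit POU5F1 passed in B-K562 (adjusted p = 0.03) on a value of 1 in each V-K562 library against 0, so that a pass there rests on a few reads at most. POU5F1 has near-identical copies, among them POU5F1B, which was at 6, 6 and 10 in G-K562 and at 2 or less elsewhere, so the few reads of both are uncertain.

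Chromatin at the POU3F2 start was more open in both BASP1 lines. A region of chromosome 6 from 98833955 to 98834940 covers the start, with its summit 142 bp before the RefSeq start (at -272 bp from the start in the deposited table), and includes the sequence printed above. The summit pileup, the number of tags over the summit after the authors had sampled all libraries to an equal number of tags, was 59, 78 and 91 in V-K562. It was 168, 176 and 162 in B-K562 and 153, 187 and 170 in G-K562. Each BASP1 library was above each V-K562 library, and the BASP1 lines overlapped. These pileups are unscaled, and the share of all regions in which lines do not overlap was not computed. Nothing is therefore read from a lack of overlap, here or at the regions below. The tests used pileups divided by a scale factor per library. Over all 9 libraries, as in the direct comparison, it was 0.866 to 0.894 (V-K562), 0.978 to 1.01 (B-K562) and 1.12 to 1.18 (G-K562). For each comparison with V-K562 it was computed anew from the 6 libraries compared. The fitted differences from V-K562 are smaller than those of the pileups. The log2 fold change was 1.01 in B-K562 (standard error 0.15, adjusted p = 0.0038) and 0.82 in G-K562 (standard error 0.17, adjusted p = 0.0071). Both passed the adjusted p in all 11 alternatives, where B-K562 ranged from 0.85 to 1.16 and G-K562 from 0.66 to 1.17, so that the 2-fold line itself falls inside these ranges. The difference of G-K562 from B-K562 did not pass the test (log2 fold change -0.21, standard error 0.15, adjusted p = 0.36). Whether it differs from the RNA difference, whose p is a description only, was not tested. The other region within 100 kb lay 11.2 kb downstream of the start, with pileups of 14 to 34 in 6 libraries and no peak in 3, and passed no test.

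POU3F1 gained accessibility at its start in B-K562, while its RNA stayed at a few reads. The region, on chromosome 1 from 38046677 to 38047392, covers the start of the gene, which has a single exon on the minus strand. Pileups were 29, 42 and 28 in V-K562, 110, 106 and 109 in B-K562 and 53, 45 and 30 in G-K562. The B-K562 libraries stood apart from all others, and those of G-K562 overlapped V-K562. The log2 fold change was 1.56 in B-K562 (standard error 0.18, adjusted p = 0.0021), with 210 of 52204 regions above it, and 0.01 in G-K562 (standard error 0.27, adjusted p = 0.99). From B-K562 to G-K562 it changed by -1.57 (standard error 0.23, adjusted p = 0.00075). The RNA of the gene was at 4 to 6 in both V-K562 and B-K562.

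An intronic region of POU2F3 showed the largest chromatin difference among the POU regions in B-K562 against V-K562 and between the BASP1 lines, and moved in opposite directions in the lines. Pileups were 38, 34 and 36 in V-K562 and 125, 147 and 142 in B-K562. In G-K562 replicate 1 had no peak and the others had 16 and 17, at about the floor of 17 used for absent or low peaks. The 3 lines did not overlap in these unscaled pileups. The log2 fold change was 1.76 in B-K562 (standard error 0.14, adjusted p = 0.00097) and -1.21 in G-K562 (standard error 0.14, adjusted p = 0.00072). Their direct difference was -2.96 (standard error 0.15, adjusted p = 1.8e-06), and 89 of 60181 regions had a lower value. Over the alternatives the G-K562 difference from V-K562 ranged from -1.58 to -0.93. POU2F3 RNA stood at 6 or less in every library.

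Among the other regions, an intronic one of POU2F1 (chromosome 1 from 167221978 to 167222525) rose in both lines, with pileups of 51, 60 and 54 in V-K562, 96, 94 and 104 in B-K562 and 106, 117 and 110 in G-K562. The log2 fold changes were 0.67 (standard error 0.13, adjusted p = 0.0079) and 0.65 (standard error 0.12, adjusted p = 0.0046), while the RNA of the gene fell in G-K562. At the POU2F1 start itself, pileups were 120 to 129 (V-K562), 136 to 167 (B-K562) and 172 to 228 (G-K562), and neither line passed the test after scaling (adjusted p = 0.3 and 0.078). With equal tags and no further scaling the POU2F1 start passed in G-K562, at 0.64 (adjusted p = 0.0037), and not in B-K562. The octamer of the internal POU2F1 promoter lay under a peak of V-K562 replicate 2 with a pileup of 18, and no other library had a peak there. At the POU4F1 start, pileups were 45 to 58 (V-K562), 70 to 82 (B-K562) and 71 to 93 (G-K562), and neither difference passed (adjusted p = 0.11 and 0.12). Without that scaling both passed at the POU4F1 start, at 0.54 in B-K562 (adjusted p = 0.035) and 0.71 in G-K562 (adjusted p = 0.0095). Whether they pass thus depends on the scaling. At the upstream RefSeq start of POU6F1, pileups were 41 to 54, 51 to 64 and 50 to 62 in the same order. The log2 fold change there was 0.09 in B-K562 (standard error 0.18, adjusted p = 0.76), where POU6F1 RNA fell. That region does not cover the start in the deposited annotation, from which its summit lies at -611 bp. The region at the other RefSeq start had a peak in 1 V-K562 and 1 B-K562 library and was not tested in B-K562. An intronic region of POU5F1 had peaks of 26 to 30 in all V-K562 libraries, of 24 in 1 B-K562 library and in no G-K562 library, and its log2 fold change was -0.89 in G-K562 (standard error 0.13, adjusted p = 0.0018). That region was tested only because all V-K562 libraries had a peak, and the G-K562 side of the change is the floor. No region lay within 5 kb of POU3F3.

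**Figure D3:**
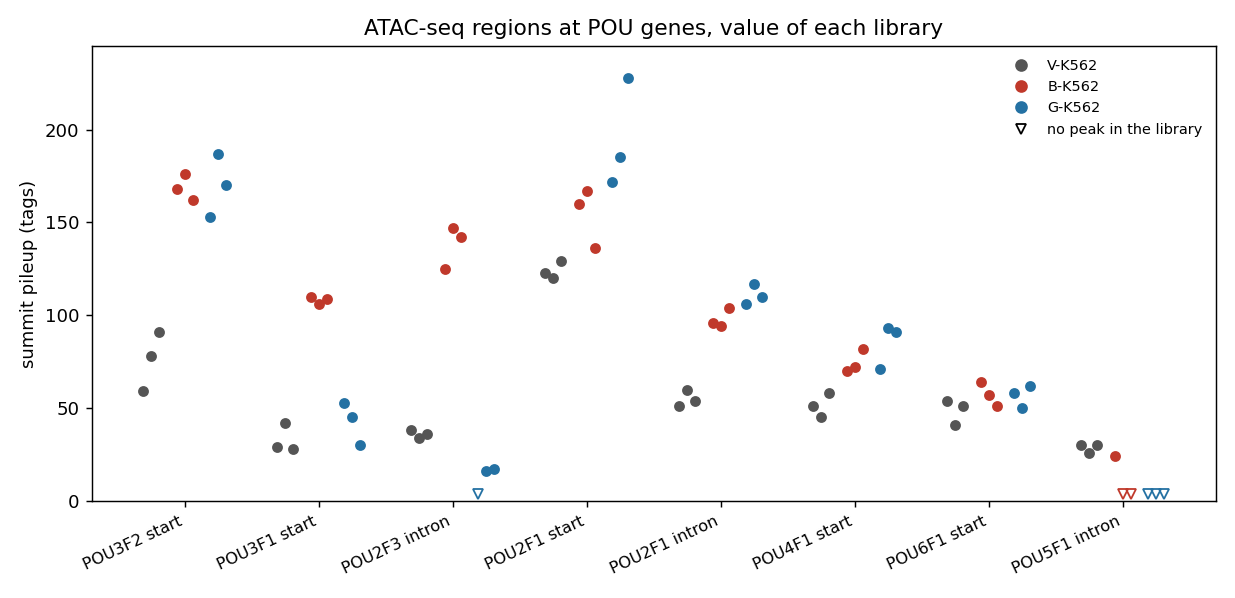
Summit pileup in tags (vertical axis, unscaled) of 8 ATAC-seq regions at POU genes in the 9 libraries, 1 point per library and a triangle where a library has no peak. At the POU3F2 start both BASP1 lines lie above V-K562, while at the POU3F1 start and the POU2F3 intron B-K562 is at 106 to 110 and 125 to 147 and the other lines are lower.

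Of the 33 regions, 9 had a peak in all 9 libraries and 14 belonged to POU2F1, the longest of the genes. In B-K562 against V-K562, 21 had peaks in at least 3 of the 6 libraries and were tested, and 3 were called higher, the POU3F2, POU3F1 and POU2F3 regions above, beside 7.68% called over all regions (1.53% higher and 6.16% lower). Each of these has a peak in every V-K562 and B-K562 library. Another 2 of the 21, at POU2F1 and POU2F3, rose by less than 2-fold, 2 at POU5F1 and POU6F1 fell by less than 2-fold and 14 did not pass, while 25.2% of all regions passed without regard to size (8.57% higher and 16.6% lower). The POU2F3 rise was lost in 5 of 11 alternatives (adjusted p up to 0.093), and the falls at POU5F1 and POU6F1 in 5 and 6 of 10 (up to 0.11 and 0.1). Both regions that fell had 3 V-K562 peaks and 1 B-K562 peak, so they were tested only through the line where they are high. In G-K562 against V-K562, 25 were tested and 2 were called lower, the POU2F3 region and an intronic POU2F1 region with peaks of 35 to 54 in V-K562 and none in G-K562, beside 16% called over all regions (2.86% higher and 13.1% lower). The latter entered the test only through its V-K562 peaks, and its value of -1.40 is set by the floor in G-K562. Without regard to size 2 were higher and 4 lower, beside 41.9% of all regions (15.9% and 26%). In G-K562 against B-K562, 28 were tested and 2 called lower, those of POU3F1 and POU2F3, beside 12.9% called over all regions (4.28% higher and 8.6% lower). Without regard to size none was higher and 3 were lower, beside 27.9% of all regions (12.3% and 15.6%). The split of all calls by direction depends on the scaling: with equal tags only, 1186 regions were called higher and 2311 lower in B-K562, 4323 and 4595 in G-K562, and 4160 and 4502 between the BASP1 lines, against 797 and 3214, 1552 and 7128, and 2577 and 5177 as reported. The regions of 1 gene share its chromatin and are not independent of each other.

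The genes around POU3F2 changed by less than 2-fold or did not pass the test in either line against V-K562. The tables hold 11 genes whose start lies within 1 Mb, of which 7 passed the filter. FBXL4, the nearest of them at 113.3 kb, which encodes a mitochondrial F-box protein, stood at 381 to 454 (V-K562), 388 to 437 (B-K562) and 403 to 481 (G-K562), with log2 fold changes of -0.03 and 0.01 (standard errors 0.09 and 0.10). In B-K562 TSTD3 and COQ3 rose, by 0.56 and 0.36, PNISR fell by 0.61, and the other 4 did not pass. In G-K562 TSTD3 rose by 0.82, and COQ3, CCNC, PNISR and USP45 fell by 0.69, 0.38, 0.33 and 0.23. The median over the 7 was -0.034 and -0.23, against 0.0072 and 0.0027 over all genes tested. The plot of neighbours sets them beside POU3F2, which was chosen for its rise in these comparisons, so its distance from them is no finding.

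**Figure D4:**
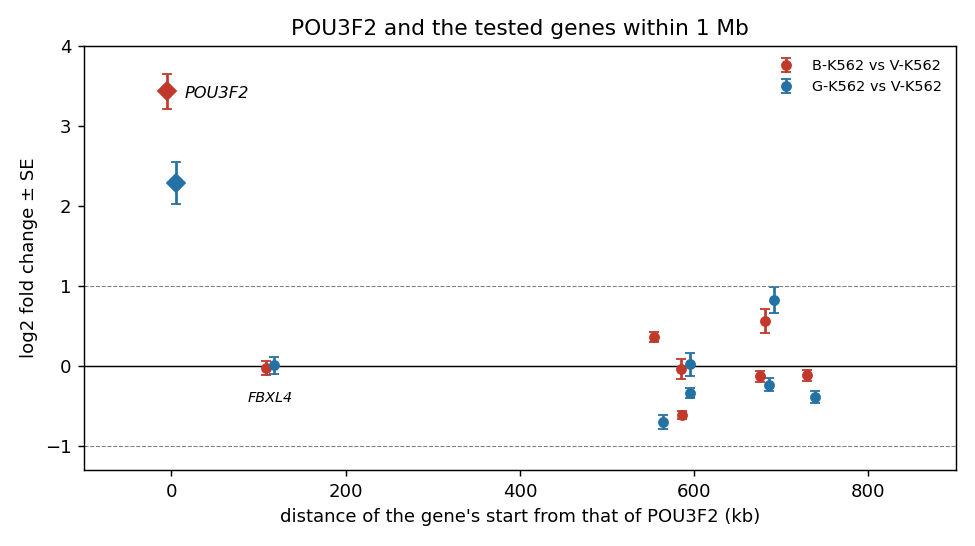
Log2 fold change with 1 standard error (vertical axis) against the distance in kb of a gene's start from that of POU3F2, for POU3F2 (diamonds) and the 7 tested genes within 1 Mb (points), in B-K562 and G-K562 against V-K562; points are shifted by 5 kb to either side to keep them apart. The neighbours lie between -0.69 and 0.82 and POU3F2 at 3.44 and 2.29.

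The genes most like POU3F2 over the 9 libraries were ASCL2, MALT1, GCSAML, PAGE2 and KCNQ5. Likeness was the root mean square difference of log2(value + 1) after the V-K562 mean of each gene had been subtracted, which was 0.237 for ASCL2 and 0.573 for KCNQ5 against a median of 2.42 over 15520 genes. ASCL2, a basic helix-loop-helix factor, stood at 3 or 4 (V-K562), 51 to 77 (B-K562) and 21 to 25 (G-K562). MALT1, a paracaspase of lymphocyte signalling, stood at 213 to 218, 1654 to 1763 and 842 to 905 in the same order. These genes were picked for that pattern, so their levels carry no test.

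POU1F1, POU3F4, POU4F2, POU4F3, POU5F1B and POU5F2 are in the tables too and stayed under the filter. POU4F2 was at 0 in all V-K562 libraries, at 6, 5 and 4 in B-K562 and at 0 or 1 in G-K562.

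The partners and coactivators of POU factors moved in both directions in B-K562. Of 9 listed, 6 passed the filter, and the coactivator gene POU2AF1 was at 0 or 1 throughout. In B-K562 HCFC1, a host cell factor that binds POU2F1 in complex with viral activators, and SNAPC5, a subunit of the complex that starts small nuclear RNA genes, were called higher, 2.07-fold and 2.21-fold, which is 2 of 6 beside 6.46% of all genes. SNAPC4, the subunit that POU2F1 contacts, rose by 0.95, SNAPC3 and SNAPC1 fell by 0.98 and 0.55, and SNAPC2 did not pass, with a median of 0.48 over the list against 0.0072 over all genes. In G-K562 SNAPC3 was called lower at -1.06, which is 1 of 6 beside 10.3% of all genes. In that line SNAPC1 and SNAPC4 fell by 0.34 and 0.29, SNAPC5 rose by 0.78 and the median was -0.18 against 0.0027.

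Genes that work with or downstream of POU3F2 in neural cells moved in both directions. Over all genes 6.46% were called higher and 14.1% lower in B-K562, and 8.81% and 10.3% in G-K562. Of 16 listed, 5 were tested in B-K562: PAX6 was called lower at -1.40, NES fell by 0.20, MITF and MYT1 rose by 0.63 and 0.53, TUBB3 did not pass, and the median was 0.02 against 0.0072 over all genes. Of the same 5 in G-K562, PAX6 and NES were called higher at 1.21 and 1.69, MYT1, which passed the filter through V-K562 alone, was called lower at -2.99, MITF fell by 0.29 and TUBB3 did not pass. NES, an intermediate filament of neural progenitors, stood at 754 to 882 (V-K562), 700 to 755 (B-K562) and 2561 to 3017 (G-K562). Of 5 neuron markers, only SYP, a synaptic vesicle protein that is not confined to neurons, was at 10 or more in every library, and the summed level of the list was 91 to 110 (V-K562), 123 to 139 (B-K562) and 38 to 68 (G-K562). NEFL was at 0 in all G-K562 libraries.

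Regions that hold the octamer were described beside all regions, since POU factors differ in level between the lines. In B-K562 against V-K562, 1325 of 52204 regions tested held it and their median log2 fold change was -0.07, against -0.06 over all. The share called higher was 2.49% against 1.53%, and the share called lower 6.42% against 6.16%. In G-K562 against V-K562, 1361 regions had a median of -0.19 against -0.10, with 16.1% called lower against 13.1%. Regions with the octamer were lower in G and C, with a median of 48.6% against 52.5%, and after the median of regions of like G and C content was subtracted the medians turned to 0.06 and 0.03, so that no direction holds. In G-K562 against B-K562, 1490 regions had a median of -0.04 against 0 over all, and -0.04 after the same step, so that here the sign stayed. The share called lower was 12.2% against 8.6%, and the share called higher 4.56% against 4.28%. These shares were not centred on G and C content, and the difference was not tested.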

How the data were processed

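RNA-seq (stranded poly(A) libraries) and ATAC-seq were each made in 3 culture replicates for every line. The authors mapped RNA reads to GRCh38 with STAR, counted them on genes with Subread and divided by DESeq2 size factors, and the deposited values, rounded to whole numbers, are treated as a score and not as raw counts. For ATAC-seq the authors mapped with BWA-MEM, sampled each library to the same number of tags and ran MACS2 on every library alone, and the deposited signal is the summit and mean pileup of each interval. Columns of the authors' fold changes, p-values and group means were not used.

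For genes that reached 10 in 3 or more libraries, limma-trend (limma 3.58.1, R 4.3.3) was fitted to log2(value + 1), and p-values were adjusted by Benjamini-Hochberg over all genes. The direct contrast of the BASP1 lines came from a model with all 9 libraries. ATAC-seq intervals were merged into 85549 regions, scaled by a trimmed mean (30% of ratios and 5% of means trimmed), raised to a floor of 17, the 5th percentile, and tested likewise where at least 3 libraries had a peak. A call needs an adjusted p no higher than 0.05 together with a change of 1 or more on the log2 scale. The procedure was tested on simulated data. The tables give depth only as approximate reads on genes, 28900000 to 37000000 per RNA-seq library.

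The named genes are the 9 POU genes, every region within 5 kb of them, tested genes within 1 Mb of POU3F2, the 5 genes most like POU3F2, BASP1 and 7 gene lists (other POU genes, partners and coactivators, pluripotency, neural, tuft cell, lymphoid and sensory neuron genes) with 5 marker lists. The members and lists were chosen with earlier results of these data known. Some members of 4 lists, and the counts and medians that need them, are not reported here. The CCAAT and WT1 motifs and the genes near 2 regions were added after values were seen. Replicate numbers were not treated as pairs.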

Additional observations from a re-analysis of the deposited data

Results flagged for a closer look

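In 4 cases, 2 genes and 2 regions, G-K562 and B-K562 differed by at least 2-fold in their direct test. Over all features, 29.9% of genes and 12.9% of regions were called in that test. Without regard to size, all 5 genes and 3 regions passed it. The group was chosen for POU3F2. POU3F2 RNA was lower in G-K562 than in B-K562, with a log2 fold change of -1.11, and POU6F1 RNA was higher, with 1.79. Accessibility was lower in G-K562 than in B-K562 at the POU2F3 intron, with -2.96, and at the POU3F1 start, with -1.57. At the POU2F3 intron the lines lie on opposite sides of V-K562. POU6F1 RNA was below V-K562 in B-K562, while in G-K562 it overlapped V-K562 and its rise was lost in 6 of 11 alternatives. The RNA of POU2F3 and POU3F1 stayed under the filter on low values.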

How the results depend on the processing

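Of 177 alternative values of the 5 POU genes tested for RNA, 157 kept direction and side of the threshold, and 20 kept direction with the adjusted p above 0.05, all for POU4F1 in B-K562, POU6F1 in G-K562 and POU2F2 between the BASP1 lines. The numbers of genes called moved most without the fold criterion, to 11342, 10209 and 12190 in B-K562, in G-K562 and between the lines, and to 1933 in G-K562 with at least 10 in every library. For ATAC-seq, calls numbered 13136, 22734 and 16768 without the fold criterion, 7704, 13601 and 12359 with the lowest pileup as floor, 1250, 2826 and 2443 with a peak in every library, and 2400 in B-K562 by mean pileup. The octamer medians turned to 0.0613 in B-K562 and 0.0255 in G-K562 after centring on G and C content, were -0.117, -0.224 and -0.019 with the 7 base motif, and ranged from -0.0736 to -0.0554, -0.2 to -0.164 and -0.0462 to -0.0209 with single libraries left out.

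Of the values of the POU regions, 753 kept direction and side of the threshold, 22 lost the adjusted p, 17 gained it and 60 turned sign. A region whose sign turned did not pass, as reported, in the comparison where it turned. Losses were at POU2F3 region 4, POU5F1 region 1 and POU6F1 region 1 in B-K562 and at POU2F1 region 12 in G-K562, the last in 6 of 10 alternatives (adjusted p up to 0.14). Without scaling beyond equal tags, POU2F1 region 6 and POU2F2 region 3 were at 0.0409 and 0.136 in B-K562. POU2F1 region 4, POU2F2 regions 3 and 4 and POU6F1 region 3 were then at 0.151, 0.25, 0.0837 and 0.219 in G-K562, and POU2F1 region 2, POU2F2 regions 1 and 3, POU3F2 region 1 and POU4F1 region 1 at 0.178, 0.0688, 0.114, 0.00734 and 0.178 between the lines. By mean pileup POU2F2 region 3 was at 0.037 in B-K562, POU2F1 region 7 and POU3F1 region 1 at -0.0376 and -0.094 in G-K562 and POU2F2 region 1 at 0.0059 between the lines. With the lowest floor POU2F1 region 4 was at 0.112 in G-K562. Regions are numbered along each gene's chromosome. With single libraries left out, B-K562 values ranged from -0.238 to 0.248 and -0.306 to 0.17 in POU2F1 regions 13 and 6, -0.0481 to 0.0386 and -0.24 to 0.277 in POU2F2 regions 3 and 4, and -0.0461 to 0.173 in POU6F1 region 3. G-K562 values ranged from -0.0239 to 0.516, -0.459 to 0.176, -0.11 to 0.21 and -0.0356 to 0.13 in POU2F1 regions 13, 4, 7 and 9, -0.179 to 0.0566 and -0.394 to 0.148 in POU2F2 regions 3 and 4, and -0.145 to 0.273 in POU3F1 region 1. Between the lines they ranged from -0.0859 to 0.0132 and -0.0984 to 0.113 in POU2F1 regions 2 and 9, -0.177 to 0.181, -0.198 to 0.0422 and -0.413 to 0.124 in POU2F2 regions 1, 3 and 4, -0.194 to 0.231 in POU2F3 region 5, -0.117 to 0.0925 in POU4F1 region 1 and -0.58 to 0.12 in POU6F1 region 4. The causes were not tested.

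Libraries with the same replicate number did not deviate together in every pair (correlations of -0.0966 to 0.145), so the replicate block is given here alone: it called 3092, 2924 and 4646 genes and 4133, 8799 and 7765 regions against 3077, 2919, 4645, 4011, 8680 and 7754 without it.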

Other observations

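Lists linked to other POU factors moved in both directions. For the calls here and in the next paragraph, 6.46% of all genes were called higher and 14.1% lower in B-K562. In G-K562 8.81% were called higher and 10.3% lower. Of 11 pluripotency genes that work with POU5F1, 4 were tested in B-K562, where LIN28B and ZFP42 were called higher at 1.64 and 2.90, KLF4 fell by 0.88 and LIN28A did not pass, with a median of 0.95 against 0.0072 over all genes. ZFP42 passed the filter through B-K562 alone, and that median includes it. In G-K562, of 3 tested, KLF4 and LIN28A were called higher at 2.57 and 3.03 and LIN28B rose by 0.48, with a median of 2.57 against 0.0027. LIN28A, an RNA-binding protein that blocks let-7 processing, stood at 31 to 64 (V-K562), 47 to 62 (B-K562) and 355 to 419 (G-K562). LIN28B, its paralog known from fetal blood formation, stood at 1217 to 1622, 4260 to 4580 and 1919 to 2144. ZFP42, a zinc finger gene of embryonic stem cells, was at 3 to 13 in V-K562, 48, 53 and 61 in B-K562 and 1 or 2 in G-K562. SOX2 and NANOG, which act with POU5F1, were at 2 or less in every library.

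Of 9 tuft cell genes linked to POU2F3, 4 were tested and all 4 fell by less than 2-fold in B-K562, where 37.2% of all genes were lower at any size, with a median of -0.54 against 0.0072 over all genes. In G-K562 GFI1B and SH2D6 were called lower at -1.98 and -1.10, PTGS1 rose by 0.87, AVIL did not pass and the median was -0.35 against 0.0027. GFI1B is also a factor of the erythroid and megakaryocyte lineages, to which K562 belongs, and TRPM5 and IL25 were at 3 or less throughout. Of the lymphoid genes linked to POU2F1 and POU2F2, PAX5 was called lower in B-K562 at -1.05, CD36 rose by 0.95 and CR2 did not pass. In G-K562 CR2 was called lower at -1.12, CD36 was called lower with 17 to 20 in V-K562 and 0 in all G-K562 libraries, and PAX5 did not pass. MS4A1, a marker of B lymphocytes, was at 0 in every library. Of the sensory neuron genes linked to POU4F1, NTRK3 and RUNX3 were called lower in B-K562 at -1.64 and -4.46 and RUNX1 rose by 0.46. In G-K562 NTRK2 was called higher, 3.63-fold, RUNX1 rose by 0.82, RUNX3 was called lower at -2.68 and NTRK3 fell by 0.88. NTRK2 stood at 11, 4 and 1 in V-K562 and 20, 12 and 20 in G-K562, so it passed the filter through G-K562 alone and its fold rests on a few reads. PAX5, NTRK3 and RUNX3 in B-K562, and CD36, NTRK3 and RUNX3 in G-K562, in turn passed through V-K562, where they are high. The 4 epithelial markers summed to 17567 to 19243, 11564 to 11837 and 21842 to 22622 in V-K562, in B-K562 and in G-K562, mostly KRT8 with EPCAM next, and the 4 fibroblast markers to 1532 to 1795, 912 to 1210 and 1165 to 1289. In V-K562 replicates 1, 2 and 3, KRT5 stood at 143, 0 and 0 and CDH1 at 39, 5 and 3. Replicate 1 thus held most of both, and the cause was not tested.

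The genes nearest to the POU2F3 intronic region did not all follow it. Within 100 kb of its summit, TRIM29 was called lower in both lines, at -2.36 in B-K562 and -3.70 in G-K562. OAF stood at 535 to 639 (V-K562), 534 to 545 (B-K562) and 125 to 186 (G-K562). TMEM136 fell by 0.69 in B-K562 and rose by 0.34 in G-K562, and ARHGEF12 rose by 0.25 and 0.89. Around the POU3F1 start, SF3A3 and UTP11, whose starts lie at -56.5 and -34.3 kb from the summit, rose by 0.65 and 0.66 in B-K562 and fell by 0.62 and 0.34 in G-K562. The other tested genes within 100 kb, FHL3 and INPP5B, fell by 0.11 and 0.25 in B-K562, and in G-K562 FHL3 fell by 0.33 and INPP5B did not pass.

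Among 218 tested genes with the octamer in a RefSeq promoter window, 16.5% were called lower in B-K562 against 13.3% of all genes with a window, 5.5% higher against 6.11%, and their median log2 fold change was -0.12 against 0.03. In G-K562 against V-K562, 12.1% of 232 were called higher against 8.35% and 11.6% lower against 9.37%, with a median of 0.07 against 0.01. In G-K562 against B-K562, 22.4% of 237 such genes were called higher against 16.8% and 11.4% lower against 11.8%, and the median was 0.24 against -0.04. Unlike the medians of the regions, these were not centred on G and C content, so the part of base content in them was not tested.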
